A study of Mus musculus with 6 samples.

Results

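Among the CD11b+TOM+ cells sorted from mouse lymph nodes was a set of lymphoid cells, and many of them carried antibody against CD169, a macrophage protein. A cell was taken as lymphoid when it held at least 2 UMIs (unique molecular identifiers, each counting 1 captured mRNA molecule) of Cd3e, Cd3d, Cd3g and Ncr1 together. Cd3e, Cd3d and Cd3g encode the CD3 chains of the T cell receptor complex, and Ncr1 encodes the natural killer receptor NKp46. By this rule 1852 of 12139 cells were lymphoid. Of these, 1317 were CD169-high, with 30 or more CD169 antibody counts, 225 were CD169-low, with 5 or fewer, and 310 lay between the limits. Unimmunized mouse 1 gave 982 of the CD169-high cells, and immunized mouse 2 had fewer CD169-high (45) than CD169-low cells (62). The CD169-high and CD169-low cells of each mouse were summed into 1 library each and compared within the mouse, and the question was which mRNAs accompany the antibody signal, macrophage mRNA included. Since both the CD169 counts and the 4 genes chose the cells, their values are given only as a description.

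The cells came from Cd169Cre/+.Tdtomato fl/fl (CD169Tom) mice on a C57BL/6J background, in which Cre driven from the Siglec1 locus marks cells that have switched this gene on, and their progeny, with tdTomato. A TOM+ cell therefore need not express Siglec1 at the time of the sort. There were 2 unimmunized mice and 2 mice immunized with hen egg lysozyme and harvested on day 9. The paper's immunization method uses lysozyme conjugated to an ovalbumin peptide, given in adjuvant. Its recipients had been given OT-II T cells and lysozyme-specific B cells the day before. The paper's single-cell methods do not say whether the sequenced mice received such cells. Inguinal lymph node cells were stained with 1 hashtag antibody per mouse and 6 tagged surface antibodies, sorted as live CD11b+TOM+ cells, pooled, and split over 2 10X captures, so all 4 mice shared both captures. Below, values for the mice stand in the order unimmunized mouse 1, unimmunized mouse 2, immunized mouse 1, immunized mouse 2.

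CD169, also called Siglec-1 or sialoadhesin, is a lectin that binds sialic acid on the surface of other cells, and in the lymph node it marks the macrophages that line the subcapsular and medullary sinuses. Innate-like lymphocytes, which include gamma-delta T cells, other T cells that make interleukin 17 and natural killer cells, live near these sinuses, whereas naive alpha-beta T cells recirculate through the T cell zone. When lymph nodes are dissociated, fragments of CD169+ macrophages have been described on lymphocytes that lie close to them. This is background, and its part in the values below was not tested. Siglec1 lies at chr2:131069220-131086765 on the minus strand (GRCm38).

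The antibody signal is a count of short DNA tags and not of mRNA, so the tags that carry the comparison are shown here, 5′ to 3′, as they were deposited. No base is set in capitals because no part of a tag was singled out.
CD169: attgacgacagtcat
CD68: ctttctttcacggga
F4/80: ttaacttcagcccgt
CD11c: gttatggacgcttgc
Ly-6c: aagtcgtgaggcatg
Ly-6g: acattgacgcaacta
Each tag is 15 bases long, and the CD169 tag differed from the closest of the other tags at 9 positions.

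The 8 summed libraries held between 100761 and 7061556 UMIs, and the smallest was the CD169-low library of unimmunized mouse 2, with 18 cells. The number of CD169-high cells was 982, 125, 165 and 45, and the number of CD169-low cells was 74, 18, 71 and 62. The same barcode sequence occurred in both captures 621 times, and those barcodes were left out. Cells with more than 1 strong hashtag were removed, but a doublet formed by 2 cells of the same mouse could not be recognised. Itgam, which encodes the CD11b used for the sort, was detected in every library (given below with the adhesion genes). The Tomato transcript was at 0 in 4 of the 8 libraries and at most 9.92 CPM in the others, where CPM is a gene's UMIs scaled to a common library total.

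Among lymphoid cells, the CD169-high share was 83.1%, 76.7%, 45.1% and 31.7%. Both unimmunized mice lay above both immunized mice, with a mean difference of -41.5 percentage points (immunized minus unimmunized). The two-sided exact permutation test gave p = 0.333 (adjusted p = 0.333 over 5 shares), the smallest value that 2 mice against 2 allow. Cells without a UMI of the 4 genes shifted in the same direction, from 48.1% and 33.1% CD169-high to 14.2% and 2.94%. Lymphoid cells themselves made up 41.8%, 30.4%, 9.03% and 3.01% of the cells kept. These are shares of sorted cells, so fewer lymphoid cells and more of the other cells cannot be told apart. The limit of 30 counts was the same in every mouse, whereas hashtag staining was weaker in the immunized mice. Median hashtag counts were 1128, 996, 740 and 607 in CD169-high lymphoid cells and 640.5, 537.5, 424 and 346.5 in CD169-low ones. The part of staining in the CD169-high shares was not tested.

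The other surface antibodies differed between the classes as well. The mean CD68 antibody count per CD169-high cell was 13.5, 13.4, 14.5 and 10.6, against 0.905, 0.889, 1.41 and 1.18 per CD169-low cell. CD11c antibody, against an integrin of dendritic cells and some macrophages, averaged 26.0, 20.2, 42.4 and 37.7 counts in CD169-high cells and 2.70, 2.72, 13.8 and 10.7 in CD169-low cells. For neither antibody did the classes overlap. On the scale of log2(mean count + 1), CD68 was higher by 2.74 ± 0.24 (SD, n = 4 mice), CD11c by 2.16 ± 0.63, Ly-6g by 1.19 ± 0.38 and F4/80 by 1.06 ± 0.35. Mean Ly-6c was the exception, lower in CD169-high cells by -0.59 ± 0.29 on the same scale. Each of these differences in the mean had the same sign in 4 of 4 mice, and each two-sided exact sign-flip test gave p = 0.125, the smallest value 4 pairs allow (adjusted p = 0.136 over 12 measures). The median Ly-6c count did not fall in every mouse, at 42, 42, 43 and 43 in CD169-high cells against 41.5, 37, 42 and 46 in CD169-low cells.

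**Figure D1:**
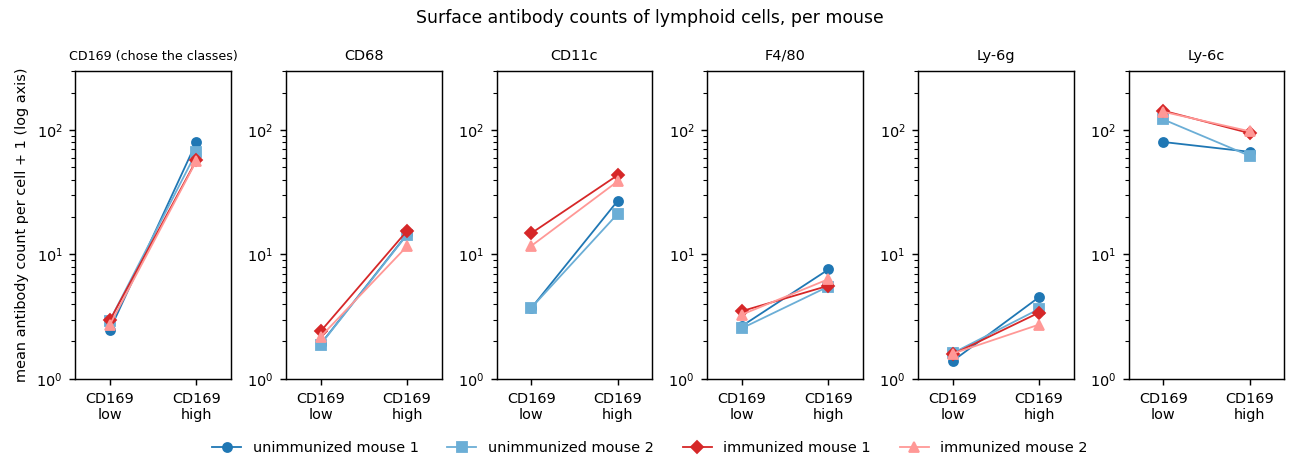
Mean antibody count per lymphoid cell plus 1 (log axis) for each of the 6 surface antibodies, with a line joining the CD169-low and CD169-high cells of each of the 4 mice. The means of CD68 and CD11c rise in every mouse, whereas the mean of Ly-6c falls in every mouse, and CD169 itself chose the classes.

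Depth and staining moved with the classes. Median UMIs per cell were 6270, 5606, 7530 and 7548 in CD169-high cells and 4903.5, 5129.5, 6036 and 6061.5 in CD169-low cells, a log2 difference of 0.28 ± 0.10 (SD, n = 4 mice). Median hashtag counts, which come from antibodies against proteins common to leukocytes, were higher in CD169-high cells by 0.83 ± 0.04 on the log2 scale. The mitochondrial share was lower by -0.746 ± 0.196 percentage points. The comparison below, with 356 genes higher and 343 lower of 5875, was refitted with limits on depth and mitochondrial share. After thinning to 1000 UMIs, 109 were higher and 96 lower of 913. In cells at or below their mouse's median UMIs, they were 275 and 286 of 3016. At a mitochondrial share of at most 10%, they were 345 and 327 of 5744. The cause of these shifts and the part of hashtag staining were not tested.

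By CD169 count, the class limits cut a continuous range. Just outside the upper limit were 99 cells with 25 to 29 counts and just inside it 113 cells with 30 to 34. Just inside the lower limit were 33 cells with 4 to 5 counts, and just outside it 13 cells with 6 to 7. The median CD169 count was 63, 58, 46 and 43 in CD169-high cells and 1, 1.5, 2 and 1 in CD169-low cells.

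Of 5875 genes tested, 356 were higher in CD169-high lymphoid cells (6.06% of the genes tested) and 343 were lower (5.84%), at an adjusted p under 0.05 in edgeR's quasi-likelihood test with the mouse as a block and Benjamini-Hochberg adjustment, which gave every adjusted p of a gene below. The genes that rose included those of type 17 and other innate-like lymphocytes and of cytotoxic cells, and the genes that fell included those of naive alpha-beta T cells. The median log2 fold change over all genes tested was -0.0039. The groups lay apart, with all 4 CD169-high libraries above all 4 CD169-low ones, for 846 genes (14.4%), and the other way round for 261 (4.44%). These 2 counts use CPM, which leave out the TMM scaling factors of the edgeR fit. Those factors were 1.04 to 1.11 in CD169-high libraries and 0.908 to 0.967 in CD169-low ones. Relative to the fit, CPM therefore place CD169-high libraries higher, and the imbalance of the 2 counts is not a result about the genes. The count of lower genes was 214 without unimmunized mouse 1 and 209 without unimmunized mouse 2. The cells were chosen on CD169 counts, so these are differences between 2 mixtures of lymphoid cells, and a change in the kinds of cell and a change within a cell cannot be told apart in them.

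**Figure D2:**
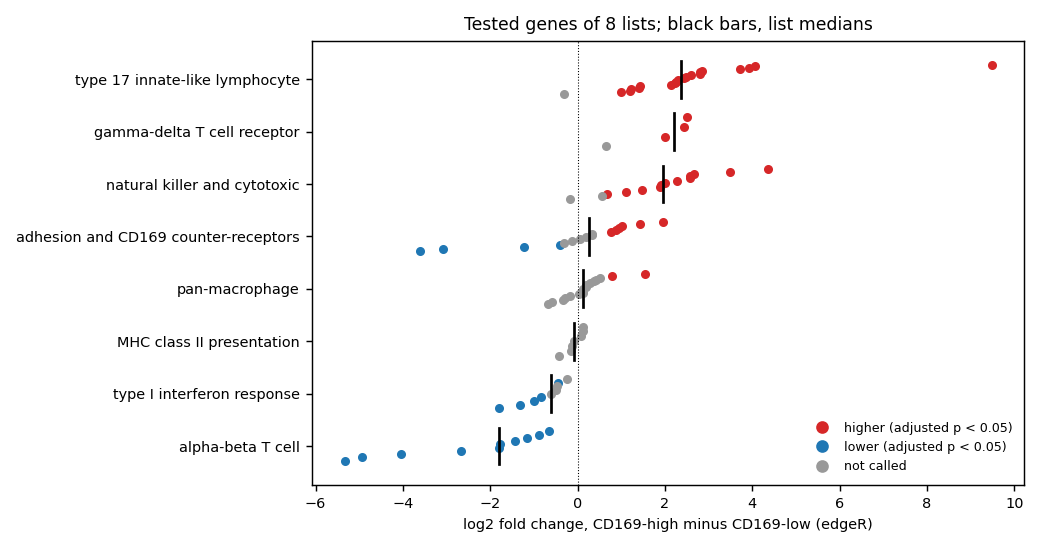
log2 fold change (CD169-high minus CD169-low, edgeR) of each tested gene of 8 gene lists, in red where higher, in blue where lower and in grey where not called, with a black bar at the list median. Type 17 genes lie around a median of 2.37 and alpha-beta T cell genes around -1.79. The place of a gene at 0 in every CD169-low library depends on the prior count.

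The type 17 innate-like list, 23 genes of which 20 were tested, had 19 higher and 0 lower, with a median log2 fold change of 2.37. Cxcr6, a chemokine receptor of tissue-resident lymphocytes (chr9:123806475-123811760, plus strand), was at 695, 665, 450.3 and 418 CPM against 142, 49.6, 86.6 and 90.0, and was higher by 2.26 ± 0.17 (SE) on the log2 scale (adjusted p = 1.62e-07). Its lowest CD169-high library lay well above its highest CD169-low library.

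The receptors by which these cells sense cytokines moved with them. Il7r, the receptor for the survival factor interleukin 7, stood at 1388, 1573, 879.5 and 676 CPM against 447, 387, 282 and 289 (log2 fold change 1.42 ± 0.14 SE, adjusted p = 2.2e-06). Il17re, a receptor subunit for interleukin 17C (chr6:113458484-113470758, plus strand), stood at 93.2, 116, 32.4 and 43.0 CPM against 2.44, 0, 1.84 and 2.09 (4.62 ± 0.44). Both genes separated the classes in every mouse. Il23r, the receptor for interleukin 23, rose by 3.72 on the log2 scale, Il18r1 by 2.13, Ccr6 by 2.86 and Il1r1 by 2.81. Of the intracellular members, Blk, a Src family kinase of gamma-delta T cells, rose by 3.93, the transcription factor Maf by 2.43, Rora by 2.31 and Zbtb16, which encodes the innate-like lymphocyte factor PLZF, by 2.59. The 1 tested member that was not called was Ltb, which encodes lymphotoxin beta, at 899, 912, 757 and 614 CPM against 848, 992, 779 and 854 (-0.32 ± 0.13, adjusted p = 0.121).

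Among the 10 largest rises of the whole table, Il22ra2 and Clu were at 0 in every CD169-low library, where 3 counts over the CD169-low group would give 1.96 CPM. The filter on low counts admitted a gene that was high enough in either class. Both genes therefore entered the test through the CD169-high libraries alone, as did Il17re, and their place among the rises is a description. Il23r and Blk could pass in the same way. In cells with 0 to 2 CD169 counts they were at 3.11, 0, 0 and 0 CPM and at 12.4, 0, 0 and 0 CPM. The count and median of the type 17 list include such genes. Il22ra2, which encodes a soluble binding protein for interleukin 22, was at 87.5, 104, 59.1 and 52.5 CPM in CD169-high cells, at least 42.2-fold above that floor. Clu, which encodes the secreted chaperone clusterin, was at 34.4, 43.6, 25.4 and 26.3 CPM, at least 17-fold above it. Other rises among them were 2900052N01Rik, Cdkn2a, 1300017J02Rik, Hlf and Lmna, with log2 fold changes of 5.29, 5.22, 4.68, 4.39 and 4.30, in addition to Il17re and Gzma. 2900052N01Rik, Cdkn2a and Hlf were each at 3.27 CPM or less in cells with 0 to 2 CD169 counts. They could also pass the filter through the CD169-high libraries alone, so their rises are a description too.

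Gamma-delta T cell receptor genes rose too. Of 7 listed constant and related segments, 4 were tested and 3 were higher, with a median log2 fold change of 2.21. Tcrg-C1, a gamma chain constant segment, was at 198, 140.2, 96.7 and 74.0 CPM against 41.5, 0, 11.1 and 12.6 (2.51 ± 0.28 SE, adjusted p = 1.06e-05). The gamma constant segments Tcrg-C1 and Tcrg-C2 are close copies and Tcrg-C4 is a related segment. Reads could be split among such segments, so the 3 are uncertain as separate genes. Trdc, the delta chain constant segment, was at 270.3, 119, 73.1 and 71.6 CPM against 83.1, 0, 40.5 and 136, with overlapping groups (0.64 ± 0.35, adjusted p = 0.3). By receptor mRNA per cell, gamma-delta cells made up 18.6%, 10.4%, 6.67% and 8.89% of CD169-high cells and 4.05%, 0%, 1.41% and 3.23% of CD169-low cells, a mean difference of 8.98 percentage points. Alpha-beta cells remained the majority in both classes, at 76.5% to 84.8% of CD169-high cells and 88.7% to 100% of CD169-low cells. Each of these differences held its sign in 4 of 4 mice (exact sign-flip p = 0.125, adjusted p = 0.136 over 12 measures).

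Natural killer and cytotoxic genes formed the other group that rose, with 12 of 14 tested members higher (of 15 listed), 0 lower and a median of 1.96. The summed level of the list did not climb steadily with the antibody. Over all 4 mice it was 1937 CPM at 0 to 2 CD169 counts, 2704 at 3 to 5 and 10225 at 6 to 14. It was 12635.5 CPM at 15 to 29 counts, 7041 at 30 to 59 and 4181 at 60 or more, so it was highest between the class limits. Gzma, which encodes granzyme A of cytotoxic granules, was at 897, 1678, 2109 and 3365 CPM against 46.4, 9.92, 329.8 and 8.38 (4.37 ± 0.50 SE, adjusted p = 1.22e-05). Klrk1, which encodes the activating receptor NKG2D, was at 319.9, 434, 377 and 411 CPM against 53.7, 0, 70.0 and 60.7 (2.58 ± 0.23, adjusted p = 9.17e-07). Neither gene overlapped between classes. Gzmb rose by 2.68, Prf1, which encodes perforin, by 1.88, and Ccl5, a chemokine of effector and memory lymphocytes, by 1.48 on the log2 scale. The 2 tested members that were not called were Eomes (0.55, adjusted p = 0.392) and Txk (-0.17, adjusted p = 0.571). Ncr1 belongs to the rule and is described only: it was at 188, 259, 334 and 306 CPM against 22.0, 0, 38.7 and 4.19. NK-like cells, with Ncr1 and no Cd3 UMI, were 3.87%, 8%, 7.88% and 4.44% of CD169-high cells and 1.35%, 0%, 0% and 1.61% of CD169-low cells. When classes were taken as the highest and lowest quartiles of the CD169 share of all antibody counts in place of the counts themselves, 0 of 15 members of this list were called, whereas 19 of 21 type 17 genes were still higher. In that fit 5.46% of 5764 genes were called higher and 8.66% lower. The share falls as counts of the other antibodies rise, so its classes also depend on those antibodies.

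Alpha-beta T cell genes fell, 10 of 10 tested, with a median of -1.79. Cd8b1, the beta chain of the CD8 co-receptor (chr6:71322788-71337494, plus strand), was at 7.51, 7.93, 10.8 and 23.9 CPM in CD169-high cells and at 362, 308, 337 and 396 CPM in CD169-low cells (-5.33 ± 0.22 SE, adjusted p = 1.1e-10). Cd8a, its partner chain (chr6:71373427-71379173, plus strand), was at 10.2, 0, 1.27 and 21.5 CPM against 195, 218, 164 and 224 (-4.93 ± 0.36, adjusted p = 9.66e-08). Both genes were at 164 CPM or more in every CD169-low library and at 23.9 CPM or less in every CD169-high one. Lef1, a transcription factor of naive T cells (chr3:131110471-131224356, plus strand), was at 17.6, 17.2, 15.9 and 43.0 CPM against 293, 506, 227 and 209 (-4.04 ± 0.26, adjusted p = 3.13e-08).

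The rest of this group moved the same way by less. Trac, the alpha chain constant region, was at 165, 138, 205 and 181 CPM against 520.4, 566, 623 and 417 (-1.80 ± 0.14 SE, adjusted p = 3.01e-07). Cd28, a co-stimulatory receptor, fell by 1.78 on the log2 scale, Cd5 by 2.66 and Cd4 by 1.15. Trbc1 and Trbc2 fell by 0.66 and 0.88, but these constant regions are close copies and are uncertain as separate genes. Of the rule's own genes, Cd3d was at 448, 488, 362 and 418 CPM against 938, 943, 792 and 974, Cd3g at 709.9, 648, 630.2 and 559 against 862, 1151, 765 and 925, and Cd3e at 414, 387, 270.3 and 279 against 471, 536, 403 and 383. Among the 10 largest falls of the table were also Dapl1 at -6.39, Igfbp4 at -5.55, BE692007 at -4.36, Gm8369 at -3.95, Fam169b at -3.70, Ccr7, the receptor that draws naive T cells into the lymph node, at -3.61 and Actn1 at -3.30.

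**Figure D3:**
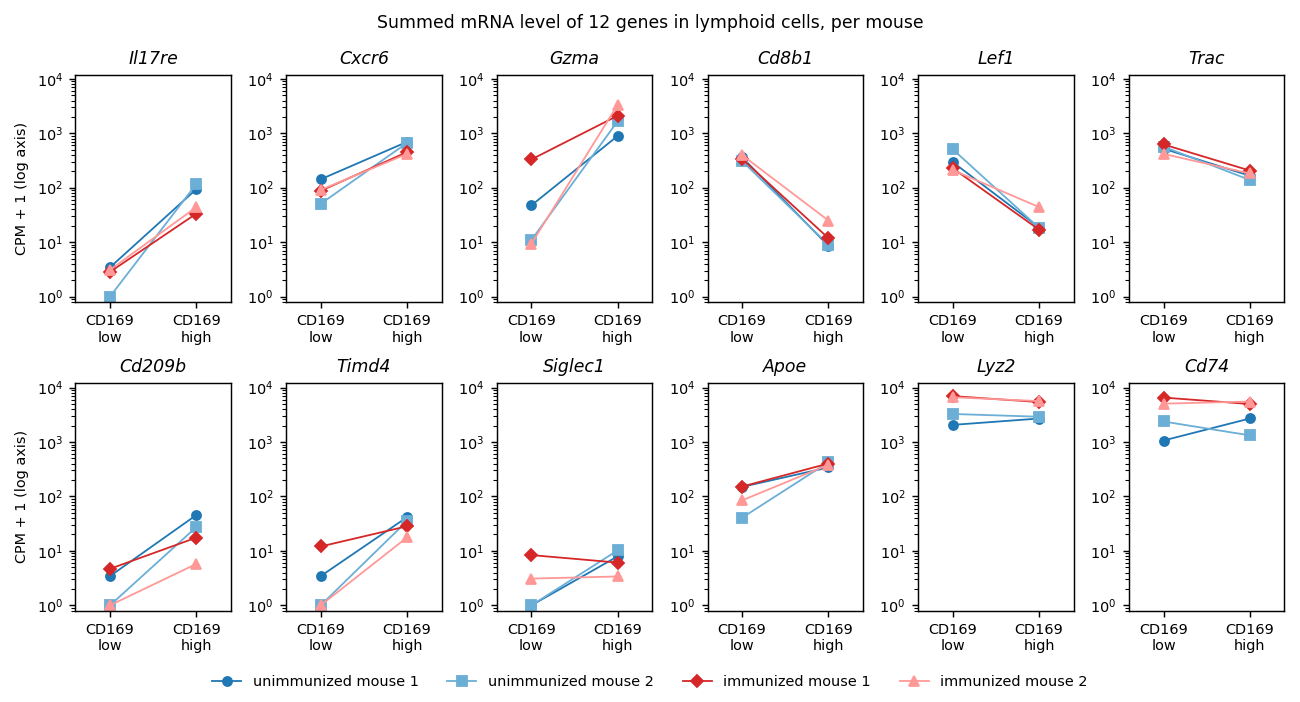
Summed mRNA level plus 1 (CPM, log axis) of 12 genes in the CD169-low and CD169-high lymphoid cells of each mouse, joined by a line per mouse. Il17re, Cxcr6 and Gzma rise and Cd8b1, Lef1 and Trac fall in all 4 mice, whereas Lyz2 and Cd74 rise in some mice and fall in others, with Lyz2 at 2064 to 6971 CPM in CD169-low cells and 2703 to 5640.5 CPM in CD169-high cells.

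CD169 counts were also read cell by cell, over 2 profiles and the cells in neither. The genes of the profiles were chosen after they had been seen to differ with the antibody, so the counts are a description and carry no test. Innate-like cells had 3 or more UMIs over 7 genes of the type 17 list, Cxcr6, Il18r1, Blk, Maf, Il23r and Ccr6 among them, and none of Cd8a or Cd8b1, and Cd8 cells had 2 or more UMIs of Cd8a and Cd8b1 and none of those 7 genes. Of 1248 innate-like cells, 889 of them from unimmunized mouse 1, 1038 were CD169-high (83.2%) and 27 were CD169-low. Of 49 Cd8 cells, 2 were CD169-high (4.08%) and 42 were CD169-low. By mouse, 1 of 13, 0 of 5, 0 of 13 and 1 of 18 Cd8 cells were CD169-high. Of the 555 cells in neither profile, 277 were CD169-high (49.9%) and 156 were CD169-low, and by mouse 68.8%, 49.0%, 29.7% and 20.3% of them were CD169-high. The median CD169 count per cell was 54.5 in the innate-like profile, 2 in the Cd8 profile and 29 in the remaining cells. The innate-like share that was CD169-high was 88.8%, 92.7%, 60.5% and 54.5%, lower in both immunized mice than in both unimmunized ones. The intervals cover counting error within a mouse only.

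Genes of adhesion, migration and sialic acid were read next, because CD169 binds sialylated partners. Of 18 listed, 16 were tested, 6 were higher and 4 lower, with a median of 0.26. St3gal6, a sialyltransferase that adds sialic acid in the alpha-2,3 linkage, was at 205, 208, 108 and 127 CPM against 44.0, 9.92, 40.5 and 23.0 (1.95 ± 0.24 SE, adjusted p = 2.46e-05). Cmah, which converts one form of sialic acid to the glycolyl form, was at 11, 9.26, 8.90 and 14.3 CPM against 83.1, 109, 66.3 and 62.8 (-3.09 ± 0.27, adjusted p = 6.89e-07). The classes did not overlap for either enzyme, and the 2 moved in opposite directions.

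Of the glycoproteins that can carry such sialic acid, Spn, which encodes CD43, rose by 1.02 on the log2 scale (adjusted p = 0.00038), and Selplg, which encodes PSGL-1, stood at 452, 465, 385 and 394 CPM against 327, 278, 271 and 287 (0.34 ± 0.13 SE, adjusted p = 0.103). The integrin genes Itgb3, Itgal and Itgb1 rose by 1.43, 0.89 and 0.76. Ptprc, which encodes CD45, fell by 0.40 (adjusted p = 0.0464), and S1pr1, the receptor with which lymphocytes leave the node, fell by 1.22. Itgam, also a member of this list (chr7:128062640-128118491, plus strand), was at 36.7, 41.0, 58.5 and 103 CPM against 9.77, 29.8, 42.4 and 31.4 (0.95 ± 0.28, adjusted p = 0.0309), with overlapping groups. Cd44, which encodes a hyaluronan receptor of activated and memory cells, was at 316, 300.1, 204 and 201 CPM against 48.9, 9.92, 133 and 103 (1.35 ± 0.28, adjusted p = 0.00346).

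Siglec1 mRNA itself gave almost no counts. It was at 6.94, 9.26, 5.09 and 2.39 CPM in CD169-high cells (49, 7, 8 and 1 UMIs) and at 0, 0, 7.37 and 2.09 CPM in CD169-low cells (0, 0, 4 and 1 UMIs). It did not pass the filter on low counts, and without the filter its log2 fold change was 0.65 ± 0.82 SE (adjusted p = 0.94). The classes overlapped, and in the CD169-low cells of the unimmunized mice a count of 0 allows up to 7.33 and 29.8 CPM, so no difference in Siglec1 mRNA was detectable at this depth.

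Of 15 detected genes of the sinus macrophage list, Siglec1 among them, 12 were not called. Cd209b, Timd4 and Marco were higher in CD169-high lymphoid cells, at low levels. Of the 16 listed, 15 were detected and 1 passed the filter: Vcam1, which was not called (-0.06 ± 0.36 SE, adjusted p = 0.959). A fit without the filter called 3 of 15 higher and 0 lower, where 3.81% of 16960 genes were called higher and 2.19% lower. Cd209b, a C-type lectin of marginal zone and sinus macrophages that is also known as SIGN-R1 (chr8:3917655-3926844, minus strand), was at 44.6, 26.4, 16.5 and 4.78 CPM against 2.44, 0, 3.68 and 0 (3.23 ± 0.62, adjusted p = 1.06e-05). Timd4, a phosphatidylserine receptor (chr11:46810800-46844332, plus strand), was at 40.6, 34.4, 27.3 and 16.7 CPM against 2.44, 0, 11.1 and 0 (2.48 ± 0.48, adjusted p = 1.15e-05). Marco, a scavenger receptor (chr1:120474538-120505024, minus strand), was at 21.5, 11.9, 2.54 and 2.39 CPM against 0, 0, 0 and 2.09 (3.39 ± 1.01, adjusted p = 0.0167). All 3 genes were higher in CD169-high cells in all 4 mice, though Marco in immunized mouse 2 rested on 1 UMI in each class. For each gene the CD169-high values of the unimmunized mice exceeded those of the immunized mice.

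Marco, Cd209b and Timd4 are the sinus genes called higher above in these same cells, so their sums are a description. The summed level of Marco, Cd209b and Timd4 was 107, 72.7, 46.4 and 23.9 CPM in CD169-high lymphoid cells and 4.89, 0, 14.7 and 2.09 CPM in CD169-low ones. That level in CD169-high lymphoid cells was 18.6%, 30.6%, 24.6% and 26.9% of the level in CD169-high cells without a lymphoid UMI of the same mouse. The tenth of CD169-high lymphoid cells with most of these UMIs held 74.3%, 76.4%, 78.1% and 80% of them, whereas for CD169-high cells without a lymphoid UMI the corresponding shares were 54.0%, 61.0%, 65.3% and 72.9%. The counts behind these shares were sparse, with 10 UMIs in 7 of 45 cells in immunized mouse 2. By antibody count, over all 4 mice, the summed level was 8.86 CPM at 0 to 2 counts, 3.89 at 3 to 5, 25.3 at 6 to 14, 21.4 at 15 to 29, 55.7 at 30 to 59 and 119 at 60 or more, so it was highest where the antibody count was highest. The whole sinus list did not climb steadily, with 15.7, 119, 63.3, 50.1, 88.9 and 176 CPM over the same steps. By mouse that list was at 150, 116, 104 and 86.0 CPM in CD169-high lymphoid cells. It was at 9.77, 69.5, 68.2 and 60.7 CPM in CD169-low ones.

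As shares of cells, these sinus genes were set against B cells, a class that should lack them. After thinning every cell to 1000 UMIs, a UMI of Marco, Cd209b or Timd4 was found in 7.74%, 6.4%, 3.64% and 0% of CD169-high lymphoid cells and in 1.35%, 0%, 0% and 0% of CD169-low ones. In the 308 B cells of the sort, chosen by B cell genes, Cd79a and Ms4a1 among them, the share was 8.54%, 6.25%, 2.99% and 2.33%, below that of CD169-high lymphoid cells in 2 mice and above it in 2. These shares do not separate expression by the lymphoid cells from mRNA of other cells. Unthinned, the shares were 27.4%, 20.8%, 20% and 15.6% in CD169-high lymphoid cells and 18.3%, 6.25%, 10.8% and 14% in B cells, higher in CD169-high lymphoid cells in all 4 mice. The median depth of the B cells was 3368.5, 3156.5, 7464 and 5603 UMIs. The summed level of these genes was also read in B cells by CD169 count. Over all 4 mice it was 73.1 CPM in the 55 B cells with 30 or more counts. It was 72.8 CPM in the 87 with 6 to 29 and 30.6 CPM in the 166 with 5 or fewer. By mouse it was 230, 26.4, 38.4 and 10.0 CPM at 30 or more counts against 11.7, 0, 55.3 and 6.39 CPM at 5 or fewer. Of the 51 UMIs at 30 or more counts, 33 came from unimmunized mouse 1. By contrast, Cxcr6 was found in 47.5%, 45.6%, 32.1% and 31.1% of CD169-high lymphoid cells after thinning, in 12.2%, 5.56%, 4.23% and 9.68% of CD169-low ones and in 0% of B cells of every mouse. Unthinned, those Cxcr6 shares were 79.7%, 73.6%, 58.2% and 55.6%, then 32.4%, 16.7%, 29.6% and 29%, and at most 1.20% in B cells.

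General macrophage genes were little changed between the classes at these limits. Of 20 genes on the pan-macrophage list, 17 were tested, 2 were higher and 0 lower, with a median of 0.13. The 2 that rose were Apoe, a lipid carrier, at 340.3, 424, 402 and 382 CPM against 149, 39.7, 151 and 83.8 (1.53 ± 0.20 SE, adjusted p = 4.77e-05), and Ctsd, a lysosomal protease, at 241, 241, 219 and 356 CPM against 109.9, 119, 136 and 168 (0.78 ± 0.14, adjusted p = 0.000942). Lyz2, the lysozyme of myeloid cells and the most abundant gene of the list, was at 2703, 2913, 5420.3 and 5640.5 CPM against 2064, 3275, 6971 and 6642 (-0.28 ± 0.12, adjusted p = 0.172). C1qa, a complement subunit of resident macrophages, was at 56.6, 34.4, 121 and 62.1 CPM against 9.77, 9.92, 33.2 and 266, where the CD169-low library of immunized mouse 2 held the highest value (adjusted p = 0.879). That library had 298 UMIs of C1qa, C1qb and C1qc together, of which 134 lay in 1 of its 62 cells. The 7 cells with most of these UMIs held 95.3% of them. Without immunized mouse 2, 6 of 17 tested genes of the list were higher, where 5.48% of 6747 genes were.

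None of the 7 MHC class II genes, of which all were tested, was called in either direction by this test (median -0.07), and their adjusted p ranged from 0.224 to 0.904. Cd74, the invariant chain, was at 2705, 1324, 4988 and 5547 CPM against 1065, 2382, 6558 and 5071 (-0.13 ± 0.22 SE, adjusted p = 0.803). It was higher in CD169-high cells in 2 mice and lower in 2.

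The counts for these 2 lists changed with the CD169 limits. With 60 or more counts against 2 or fewer, 12.1% of 4145 genes were called higher and 9.0% lower, 9 of 13 tested pan-macrophage genes rose with a median of 1.26, and all 7 MHC class II genes rose with a median of 1.35. Lyz2 was then at 3307, 4007, 6388 and 7742 CPM against 2479, 515, 2921 and 1343 (1.45 ± 0.28 SE, adjusted p = 0.00129). Cd74 was at 3521, 1764, 6452 and 6543 CPM against 1241, 561, 2868 and 1839 (1.35 ± 0.12, adjusted p = 1.78e-06). Csf1r, which encodes the receptor for macrophage colony-stimulating factor, was at 113, 75.5, 149 and 141 CPM against 52.9, 45.5, 42.5 and 34.1 (1.34 ± 0.26, adjusted p = 0.0013). Each of the 3 was higher in all 4 mice. C1qa remained uncalled at 0.59 ± 0.53 (adjusted p = 0.491).

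Cells just inside the lower limit held more macrophage mRNA than those at 0 to 2 counts in 3 of 4 mice. Over all 4 mice the pan-macrophage list summed to 3339.5 CPM in the 171 cells with 0 to 2 CD169 counts, to 15014.7 CPM in the 54 cells with 3 to 5, to 9741 CPM at 6 to 14 counts, 3343 CPM at 15 to 29, 4117 CPM at 30 to 59 and 6142 CPM at 60 or more. In cells with 3 to 5 counts it was 979, 10523, 15673 and 22966 CPM, low in unimmunized mouse 1 and high in the other 3. These values rest on only 13, 5, 23 and 13 cells. Of these cells, 0%, 0%, 26.1% and 15.4% were of none of the gamma-delta, alpha-beta and NK-like kinds. With classes taken as quartiles of the CD169 share of antibody counts, 10 of 14 pan-macrophage genes and 7 of 7 MHC class II genes were lower. With a hashtag share of at least 95%, 4 of 7 MHC class II genes were lower, where 4.81% of 4113 genes were. With 4 or more UMIs of the rule's genes, 6 of 14 pan-macrophage and 3 of 7 MHC class II genes were higher, where 8.95% of 5217 genes were. Among alpha-beta T cells alone, 5 of 14 and 3 of 7 were higher, where 8.58% of 5172 genes were.

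**Figure D4:**
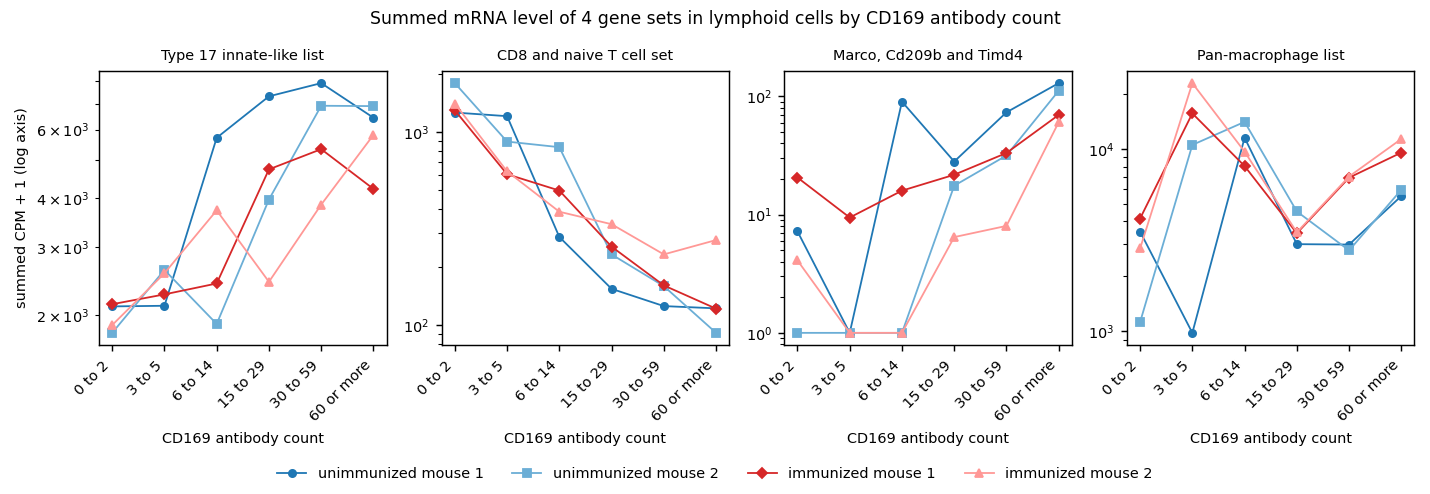
Summed level plus 1 (CPM, log axis) of 4 gene sets in lymphoid cells of each mouse by CD169 antibody count, from 0 to 2 up to 60 or more. In every mouse the type 17 list is higher and the CD8 and naive T cell set lower at 60 or more counts than at 0 to 2, whereas the pan-macrophage list is highest at 3 to 5 counts in both immunized mice, with 22966 CPM in immunized mouse 2, and at 6 to 14 counts in both unimmunized mice. Those highest points rest on few cells, 23 and 13 in the immunized mice and 16 and 3 in the unimmunized mice.

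Within the innate-like profile, some macrophage genes were higher in the CD169-high cells, and most of those tested were not called. This comparison was added after the data were seen and uses 3 mice, since unimmunized mouse 2 had 1 CD169-low innate-like cell and was dropped. The CD169-low cells were 7, 13 and 6 in unimmunized mouse 1, immunized mouse 1 and immunized mouse 2. Their libraries held only 46251, 90407 and 52969 UMIs, so low CPM values in them rest on few UMIs. Of 2748 genes tested, 23 were higher (0.837%) and 21 lower (0.764%), in all 1.6%, and the 7 genes that chose the profile carry no weight in it. Of 11 tested pan-macrophage genes 3 were higher and 0 lower, with a median of 1.65, and of 7 MHC class II genes 3 were higher and 0 lower, with a median of 1.34, where all genes tested had a median of 0.0062. The filter on low counts could admit a gene through the CD169-high libraries alone, Apoe among them. The pan-macrophage count and median include such genes and are a description. The pan-macrophage genes C1qa, C1qb, Csf1r, Cd68, Ctss, Ctsb, Ctsd and Grn were not called, with adjusted p from 0.109 to 0.973.

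In the order of those 3 mice, Lyz2 was at 2513, 5865 and 4719 CPM in CD169-high innate-like cells and at 324, 4568 and 434 CPM in CD169-low ones (2.03 ± 0.38 SE, adjusted p = 0.00596). Cd74 was at 2309, 5413 and 5161 CPM against 389, 3794 and 359 (2.09 ± 0.38, adjusted p = 0.00475). Apoe was at 327, 370.4 and 367 CPM against 0, 188 and 18.9 (2.12 ± 0.46). The CD169-low library of immunized mouse 1 stood apart from the other 2 CD169-low libraries for these genes. Aif1 and Cst3, 2 further genes of myeloid cells, rose by 1.72 and 1.18. Of 5 tested alpha-beta T cell genes 2 fell within the profile, Trac by 1.49 and Cd28 by 2.14, whereas Trbc1 at -0.77 and Trbc2 at -0.66 were not called (adjusted p = 0.235 and 0.169). Klrk1, at 263, 268 and 317 CPM against 411, 199 and 264, gave a log2 fold change of -0.0034 (adjusted p = 0.998).

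**Figure D5:**
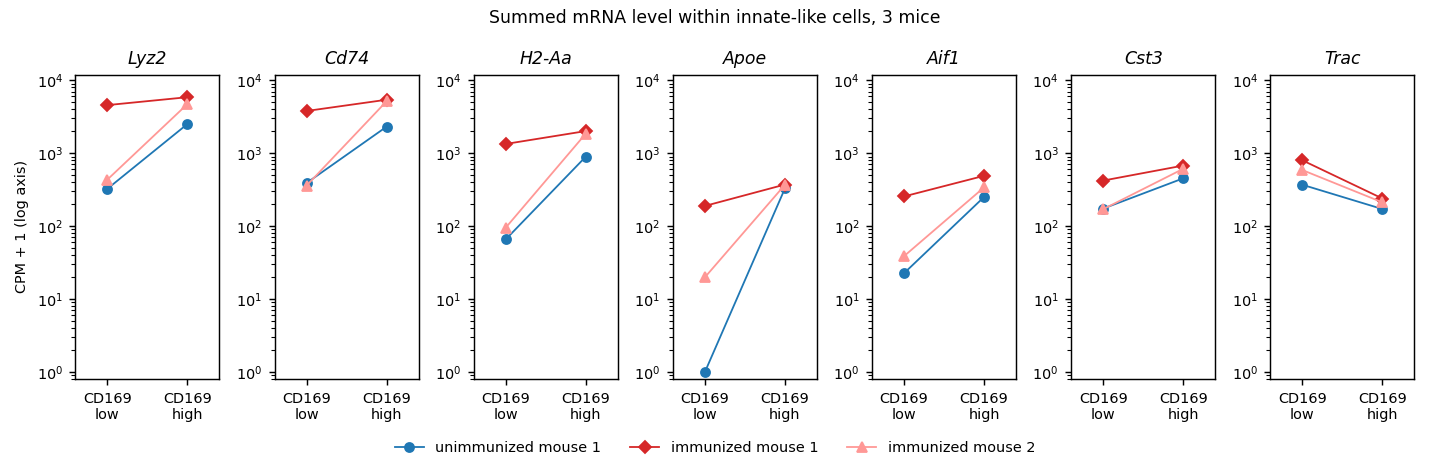
Summed mRNA level plus 1 (CPM, log axis) of 7 genes in the CD169-low and CD169-high cells of the innate-like profile, in the 3 mice with at least 5 cells in both classes. Lyz2, Cd74, H2-Aa, Apoe, Aif1 and Cst3 rise and Trac falls in each mouse, with the smallest rises in immunized mouse 1.

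Markers of other cell types were mostly too low to test. Of the 16 listed monocyte and neutrophil genes 5 were tested, and Ccr2, a chemokine receptor of monocytes and also of some lymphocytes, was higher (1.27, adjusted p = 4.81e-05), while Ly6c2, whose protein the Ly-6c antibody binds, was lower (-0.93, adjusted p = 0.00302). The neutrophil gene S100a9 was at 257, 5.29, 6.36 and 9.55 CPM against 2.44, 0, 5.53 and 2.09, high in 1 CD169-high library. Of 12 dendritic cell genes 2 were tested: Irf8 was higher (0.92, adjusted p = 0.01) and Itgax, at 0.79, was not called (adjusted p = 0.15). The B cell list had 1 tested gene of 11, Ighm, which was lower (-0.78, adjusted p = 0.00635), and its summed level was 197, 163, 148 and 100.3 CPM in CD169-high and 156, 318, 204 and 170 CPM in CD169-low cells. None of the 5 erythroid genes passed the filter, and the 1 tested stromal gene of 10, Pecam1, was lower (-0.98, adjusted p = 0.0328).

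Of the state lists, the type I interferon response was lower in 5 of 9 tested genes (of 12 listed) with 0 higher and a median of -0.61. Ifit3, an interferon-induced antiviral gene, was at 17.4, 7.93, 18.4 and 35.8 CPM against 56.2, 129, 44.2 and 50.3 (-1.80 ± 0.36 SE, adjusted p = 0.00235). Among T cell activation genes, 5 of 10 of which were tested, Cd44 and Il2ra, the interleukin 2 receptor alpha chain, were higher (Il2ra 2.10, adjusted p = 6.93e-05), and Tnfrsf4, which encodes OX40, and Cd69 were lower (Tnfrsf4 -2.55, adjusted p = 4.8e-06, and Cd69 -1.04, adjusted p = 0.0168). Tnfrsf9 was not called (-0.19, adjusted p = 0.805). The 4 tested immediate early and heat shock genes and Pcna, the 1 tested cell division gene, were not called, with adjusted p from 0.696 to 0.966.

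To compare lymphoid cells with the rest of the sort, the same antibody limits were applied to cells with 0 UMIs of the 4 genes, and the 2 differences were compared. In those other cells 10.8% of 10012 genes were higher and 9.26% lower. The test of the difference between the 2 high-minus-low contrasts called 3.73% of 8845 genes as higher in lymphoid cells and 4.28% as lower, in all 8.02%. Marco, Cd209b and Timd4 were higher by 3.03, 3.49 and 4.71 in the CD169-high cells without lymphoid UMIs, and the test of the difference for the 3 gave adjusted p of 0.928, 0.932 and 0.231. Lyz2 differed: it fell by 1.33 on the log2 scale in those cells, and the difference between the contrasts was 1.06 (adjusted p = 0.0081). Klrk1, Ccr2 and Maf also had a higher contrast in lymphoid cells, by 3.10, 2.48 and 2.25, and Cd8a had a lower one, by -10.19. Leaving out any 1 of the 4 mice gave 107 to 203 genes in place of 330 with a higher contrast, and 166 to 255 in place of 379 with a lower one.

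The high-minus-low difference itself differed between immunized and unimmunized mice for 18 of the 5875 genes (0.306%), 4 of them (0.0681%) with a higher difference after immunization and 14 (0.238%) with a lower one. The contrast of Cd44, whose values are given above, was lower after immunization by -2.07 ± 0.37 SE (adjusted p = 0.011), with the 2 classes closer together in the immunized mice but apart in all 4. S100a4, a calcium-binding protein of memory and myeloid cells, was at 3306, 3147, 2408 and 2462 CPM in CD169-high cells and 398, 208, 1166 and 902 CPM in CD169-low cells, a difference lower by -1.98. Lyz1, a second lysozyme gene, was at 201, 359.6, 241 and 301 CPM against 4.89, 9.92, 540 and 396 and had a contrast lower by -5.98. Within the innate-like profile, in the order of its 3 mice, Lyz1 was higher in CD169-high cells of every mouse, at 208, 212 and 374 CPM against 0, 22.1 and 37.8 (3.61 ± 0.52 SE). Those CD169-low values rest on few UMIs, and Lyz1 could pass the filter through the CD169-high libraries alone. Its rise there is a description. Lyz1 is a close copy of Lyz2 and is uncertain as a separate gene. Cxcl9, an interferon-induced chemokine, was at 130.1, 165, 329 and 353 CPM against 19.5, 9.92, 324 and 804 (-3.41). In the opposite direction, Izumo1r, which encodes folate receptor 4 of regulatory and anergic T cells, was at 4.96, 0, 14.6 and 31.0 CPM against 80.6, 149, 60.8 and 48.2 (3.08 ± 0.66), and Ms4a4b changed by 1.09. For Cd44, S100a4, Lyz1 and Cxcl9, both CD169-low libraries of the immunized mice lay above both of the unimmunized mice. DESeq2 called 0 genes higher and 3 lower for this difference, and its unadjusted p was under 0.05 for 87 genes, where that of edgeR was for 447. In edgeR, leaving out immunized mouse 1, immunized mouse 2, unimmunized mouse 1 or unimmunized mouse 2 gave 16, 5, 17 or 27 genes with a higher difference and 23, 28, 14 or 77 with a lower one.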

How the data were processed

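UMI counts per gene, hashtag counts and antibody tag counts were used as the authors deposited them. According to the submitters' notes and the study's methods, the gene counts were made with Cell Ranger 4.0.0 on mm10, with both captures consolidated into 1 matrix, and the tag counts with CITE-seq-Count. Of 18662 barcodes, 1242 with a sequence found in both captures, 1238 without hashtag or antibody entry, 594 above 25% mitochondrial UMIs and 3449 without 1 hashtag of at least 80% and 10 counts were left out. Counts were summed per mouse and class. Genes passing filterByExpr were tested in edgeR 4.0.16 (TMM, quasi-likelihood, mouse as block; R 4.3.3, limma 3.58.1), after the study, which also aggregated counts per hashtag and used edgeR. That filter admitted a gene on its level in either class alone. DESeq2 1.42.0 was an alternative. The mouse is a true pair: both classes come from the same animal, and their residuals correlated at 0.206, 0.0879, 0.211 and 0.199. Each mouse is a separate animal. Coordinates are from GENCODE on GRCm38.

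The lymphoid class, its limits and the gene lists were chosen with earlier results of these data known. Genes were named by rule: up to 4 members per list with the highest mean CPM, Siglec1, Tomato, Itgam, the 4 rule genes, and the 10 largest rises and falls among called genes whose log2 CPM averaged 4 or more; other list members named were chosen after their values were seen. Some genes that the rule names are not reported here. The innate-like and Cd8 profiles, the 5-gene CD8 and naive T cell set, and the alternatives on innate-like cells and on cells without marker UMIs of other types were added after the data were seen. In 5583 genes of simulated counts for the main comparison, 79.8% of 89 genes changed by 2-fold and 100% of 87 changed by 4-fold were recovered, and 9 unchanged genes were called. The simulation gave every gene the common dispersion of 0.0181 and the same base level in all mice. It therefore leaves out differences between mice and between the dispersions of genes, and recovery in the data can be lower. Shares carry exact intervals, and depth limits genes under about 10 CPM in the CD169-low library of 100761 UMIs. Python 3.11.15 with pandas 2.3.3, numpy 2.4.6, scipy 1.17.1 and matplotlib 3.10.9 did the rest.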

Additional observations from a re-analysis of the deposited data

Results flagged for a closer look

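In 80 results checked for 1 mouse far from the other 3, 6 stood apart, and chance alone flags about 1 in 20. On the scale of log2(CPM + 10), high minus low, unimmunized mouse 2 was farther from 0 than the others for Cxcr6 (3.50), Klrk1 (5.47) and Actn1 (-3.42). The same mouse had the smallest log2 difference in median UMIs per cell (0.128) and the largest in median hashtag counts (0.890). Its CD169-low library is the smallest, with 18 cells and 100761 UMIs. For H2-Eb1, unimmunized mouse 1 stood apart at 1.32. Between groups, the high-minus-low difference of Cd44 was lower in immunized than in unimmunized mice by -2.07 on the log2 scale (edgeR interaction test, adjusted p = 0.011).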

How the results depend on the processing

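Numbers of genes higher and lower in CD169-high cells, 356 and 343, were recomputed under each alternative. Without the mouse as a block the pairing was lost and the counts were 303 and 275. The filter on low counts mattered for rises (646 without it), and DESeq2 called 218 lower. The counts were 140 and 132 in capture 1, 161 and 145 in capture 2, 213 and 198 with a hashtag share of at least 95%, and 109 and 96 after thinning to 1000 UMIs, against 503 and 373 with 60 or more counts against 2 or fewer, 467 and 413 with 4 or more UMIs of the rule's genes, and 444 and 407 in alpha-beta T cells alone. In innate-like cells they were 23 and 21, in a fit that also drops a mouse and changes the mix of cells. The cause of these shifts was not tested. Leaving out 1 mouse gave 265 to 370 higher and 209 to 285 lower. For the difference by immunization, 4 higher and 14 lower, the counts were 0 and 3 in DESeq2, 11 and 37 without the filter, and 5 to 27 and 14 to 77 without 1 mouse. For the difference between lymphoid and other cells, 330 and 379, they were 618 higher without the filter, and 107 to 203 and 166 to 255 without 1 mouse. Of 68 named genes tested, 48 were called, and 21 of them kept their direction and call in every alternative in which they were tested. Direction reversed in 28 of 1275 pairs of gene and alternative, and the cause was not tested. With quartiles of the CD169 share, which also depends on the other antibodies, log2 fold changes were -1.28 for Aif1, -0.15 for Ccr2, -2.85 for H2-Aa, -2.75 for H2-Ab1, -0.92 for Irf8, -1.40 for Itgam, -1.29 for Itgax, -0.62 for Itgb2, 0.49 for Ltb, 0.24 for Trbc1 and 0.24 for Trbc2. With 60 or more counts against 2 or fewer they were 1.35 for Cd74, 0.65 for Ctss, 1.35 for H2-Eb1, 1.45 for Lyz2, -0.085 for Nkg7 and 0.80 for Plac8. In innate-like cells they were 0.075 for Bst2, -0.66 for Ccl5, 2.09 for Cd74, -0.0034 for Klrk1, 2.03 for Lyz2, -0.78 for Nkg7 and 1.44 for Plac8. H2-Eb1 was at 0.68 with 4 or more UMIs of the rule's genes and at 0.73 in alpha-beta T cells alone, and in cells at or below their mouse's median depth Ly6c2 was at 0.44 and Lyz2 at 0.69. Fits on gamma-delta or NK-like cells alone could not be made, since not enough mice had 5 CD169-low cells. Depth limits genes under about 10 CPM in the smallest library.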
